A study of Mus musculus with 12 samples.

Results

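The genes described here are those whose pathway annotation in the deposited tables holds the term Cell cycle or the term DNA replication. Of 22935 genes, 148 carried at least 1 of these terms, and Cdkn1a, Mdm2, Trp53 and Tgfb1 were left out, which gave 144 members: 116 with the Cell cycle term and 35 with the DNA replication term, 7 of them with both. RNA-seq libraries were made from BV2, an immortalised mouse microglial line that divides in culture and is a limited model of microglia in the brain. 9 libraries were used, in 3 groups of 3: cells given oxy-Hb (oxyhaemoglobin, 10 µM) with C3a, cells given oxy-Hb (10 µM) with C3aRA (50 µM), and cells given oxy-Hb (10 µM) without either agent. Oxy-Hb was therefore present in all 3 groups, and the 3 libraries labelled PBS are not used here. C3a is the small fragment split from complement component C3 that acts through the C3a receptor; the labels give its dose as 20 ug/ul and do not spell out C3aRA. The groups are called C3a, C3aRA and oxy-Hb libraries below. Whether the libraries of a group are separate cultures is not stated in the labels, and the p-values therefore rest on a spread between libraries that may be technical.

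A dividing cell enters the cycle when D-type cyclins with CDK4 or CDK6, and then E-type cyclins with CDK2, phosphorylate the RB family and release the E2F transcription factors from repression. E2F targets include the E-type cyclins and many replication proteins, among them the MCM2-7 helicase that is loaded on origins by ORC and CDC6. Replication itself uses RPA on single-stranded DNA, the sliding clamp PCNA with its loader RFC, the polymerases alpha, delta and epsilon, and the enzymes that process Okazaki fragments. Checkpoint kinases, WEE1-type kinases and 14-3-3 proteins hold CDK1 in check, the spindle checkpoint and the anaphase-promoting complex (APC/C) time mitosis, and separase cuts cohesin so that sister chromatids part.

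The libraries held 12934794 to 20479002 counts. C3a replicate 2 stood apart from the others: on the first principal component of log2 CPM it scored 76.33, against -23.84 to 10.78 in the other 8 libraries. Results that rest on it are therefore also given without it. All 10 microglia and macrophage markers were in the table. Their summed level was 1721 to 1953 CPM in C3a libraries, 1598 to 1733 CPM in C3aRA libraries and 1526 to 1627 CPM in oxy-Hb libraries. Most of it was Cd68 (780 to 1070 CPM) and Ptprc (404 to 504 CPM). Aif1 (0.75 to 2.90 CPM), Tmem119 (0.94 to 2.33 CPM) and P2ry12 (0.24 to 3.76 CPM) were low. The astrocyte, neuron, endothelial or fibroblast and red cell lists stayed at or under 1.66 CPM in each library. Of their 6 genes each, only 2, 1, 1 and 2 were in the table. The oligodendrocyte list, of which 2 of 6 genes were in the table, lay at 8.17 to 11.6 CPM. The part of these marker levels in the results was not tested.

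The cycle and replication genes were expressed in all 3 groups. Their summed level was 16564, 15008 and 17375 CPM (the count relative to the TMM-scaled library size) in C3a libraries 1, 2 and 3, 15217, 15318 and 15310 CPM in C3aRA libraries, and 14706, 14857 and 15201 CPM in oxy-Hb libraries. C3a replicates 1 and 3 were the highest of the 9 libraries, C3a replicate 2 lay among the oxy-Hb values, and the C3a and oxy-Hb ranges overlapped through it. Since bulk RNA was measured, a change in the share of cells in a cycle phase and a change of RNA per cell cannot be told apart. Of the 144 members, 140 passed the filter on low counts and were tested; Tgfb3, Smc1b, Wee2 and Sfn did not pass and averaged 0.0968, 0.115, 0.437 and 0.454 CPM over the 9 libraries, which is near the level of 3 counts (0.1562 to 0.2359 CPM). Per kilobase of the longest transcript, the highest members were Ywhae, a 14-3-3 protein, at 403 CPM per kb and Pcna, the sliding clamp, at 340.0 CPM per kb.

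The promoters of members whose values are described below are shown so that their motifs can be seen beside those values. Each is the 200 bases before the transcription start in RefSeq (GRCm38.p6), read along the gene's strand, with searched motifs in capitals. The motifs were 4 E2F words (TTTCCCGC, TTTCGCGC, TTTGCCGC and TTTGGCGC), the CHR word TTTGAA and the CCAAT word, each on both strands. Ccne1 encodes cyclin E1 (chr7:38107491-38107690, minus strand) and holds none of them in this window. Rpa1 encodes the large RPA subunit (chr11:75348384-75348583, minus strand), Rpa2 the middle one (chr4:132768160-132768359, plus strand), and Espl1 separase (chr15:102296093-102296292, plus strand). Mcm5 (chr8:75109309-75109508, plus strand) and Mcm7 (chr5:138171884-138172083, minus strand) encode helicase subunits and were added after their matches were seen, as examples with an E2F word.
Ccne1: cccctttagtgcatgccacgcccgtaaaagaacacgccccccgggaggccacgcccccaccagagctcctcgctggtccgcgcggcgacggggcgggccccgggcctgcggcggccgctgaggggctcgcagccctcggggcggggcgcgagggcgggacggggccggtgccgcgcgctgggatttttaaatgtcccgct
Rpa1: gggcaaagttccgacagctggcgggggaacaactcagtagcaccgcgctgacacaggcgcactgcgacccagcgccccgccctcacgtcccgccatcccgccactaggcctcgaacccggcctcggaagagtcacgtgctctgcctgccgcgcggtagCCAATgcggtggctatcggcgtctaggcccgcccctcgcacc
Rpa2: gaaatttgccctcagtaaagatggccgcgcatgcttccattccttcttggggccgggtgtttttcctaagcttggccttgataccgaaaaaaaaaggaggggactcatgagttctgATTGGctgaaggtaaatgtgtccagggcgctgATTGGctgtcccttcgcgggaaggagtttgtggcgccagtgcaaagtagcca
Espl1: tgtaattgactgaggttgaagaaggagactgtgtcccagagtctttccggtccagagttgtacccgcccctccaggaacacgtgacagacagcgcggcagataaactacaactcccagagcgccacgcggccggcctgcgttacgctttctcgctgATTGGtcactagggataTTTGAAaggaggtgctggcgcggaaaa
Mcm5: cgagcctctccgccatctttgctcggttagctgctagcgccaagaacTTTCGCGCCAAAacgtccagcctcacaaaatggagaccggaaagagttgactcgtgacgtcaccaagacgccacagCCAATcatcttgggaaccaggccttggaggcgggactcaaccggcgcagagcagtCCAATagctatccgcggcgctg
Mcm7: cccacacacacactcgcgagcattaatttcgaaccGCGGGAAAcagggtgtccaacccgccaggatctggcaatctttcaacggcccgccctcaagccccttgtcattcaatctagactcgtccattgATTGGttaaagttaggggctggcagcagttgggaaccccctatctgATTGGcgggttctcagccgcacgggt
In Mcm5 the capitals mark the overlapping E2F words TTTCGCGC and GCGCCAAA and 2 CCAAT words. In Mcm7 they mark the E2F word GCGGGAAA and 2 reverse CCAAT words (ATTGG), and a second RefSeq promoter of Mcm7 holds no E2F word in its 200 bases. Rpa1 holds 1 CCAAT word, Rpa2 holds 2 as ATTGG, and Espl1 holds ATTGG followed by TTTGAA.

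RefSeq promoters, here 300 bases that run from 250 before the start to 50 after it, were matched for 114 of the 144 members and gave 144 promoters. An E2F word was in 28 of the 144 (19.4%), belonging to 26 genes, against 744 of 32851 promoters of all genes (2.26%). The CCAAT word was in 48.6% of the members' promoters and 37.4% of all promoters, and TTTGAA in 18.1% and 17.9%. Polymerase and primase genes held an E2F word in 6 of 12 promoters (50.0%), the RB, E2F and co-repressor genes in 5 of 12 (41.7%), and origin licensing and firing genes in 7 of 20 (35.0%), namely in Mcm3, Mcm5, Mcm6, Mcm7, Orc1, Orc3 and Cdc6. None of the 10 spindle checkpoint promoters or the 15 APC/C promoters held one. A match describes the letters in this window and shows neither binding nor a cause.

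C3a was compared with oxy-Hb alone first, which asks what differed when cells were given the peptide as well as oxy-Hb. Over the 9 libraries 7 of the 140 tested members rose and 2 fell in C3a libraries (edgeR quasi-likelihood test, Benjamini-Hochberg adjusted p below 0.05 over 14146 genes). Of all tested genes 3.94% passed (0.905% higher and 3.04% lower), against 9 of the 140 members. The 7 that rose were Ywhaz, Skp1a, Ywhah, Rpa1, Cdk4, Ccnh and Rpa2, and the 2 that fell were Espl1 and Ep300. The median log2 difference was 0.11 over the members and 0.00 over all genes. Without C3a replicate 2, 24 members rose and 5 fell, against 9.55% of all genes (4.0% higher and 5.55% lower), and the median was 0.15. All 9 members called over the 9 libraries were also called without it. When the C3a and oxy-Hb libraries were fitted without the C3aRA libraries, no member passed (0.72% of all genes did). With total-count scaling in place of TMM, 2 members rose and 3 fell, and 4.87% of the calls over all genes were upward, against 22.9% with TMM and 36.4% with DESeq2.

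Counted by separation of the groups, all 3 C3a libraries lay above all 3 oxy-Hb libraries for 32 members and below them for 9, against 13.2% and 14.6% of all genes. The counts were 65 above and 14 below without C3a replicate 2, against 19.7% and 19.0%. By library, the members' median log2 difference from the mean of the oxy-Hb libraries was 0.094 in C3a replicate 1, -0.007 in replicate 2 and 0.202 in replicate 3, whereas C3aRA libraries lay between -0.016 and 0.024. Single libraries moved the count of 9 members: it was 29 without C3a replicate 2, 19 without C3a replicate 1, 3 without C3a replicate 3, 4 without oxy-Hb replicate 3, 2 without any 1 of the C3aRA libraries, and 0 without oxy-Hb replicate 1 or without oxy-Hb replicate 2.

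**Figure D1:**
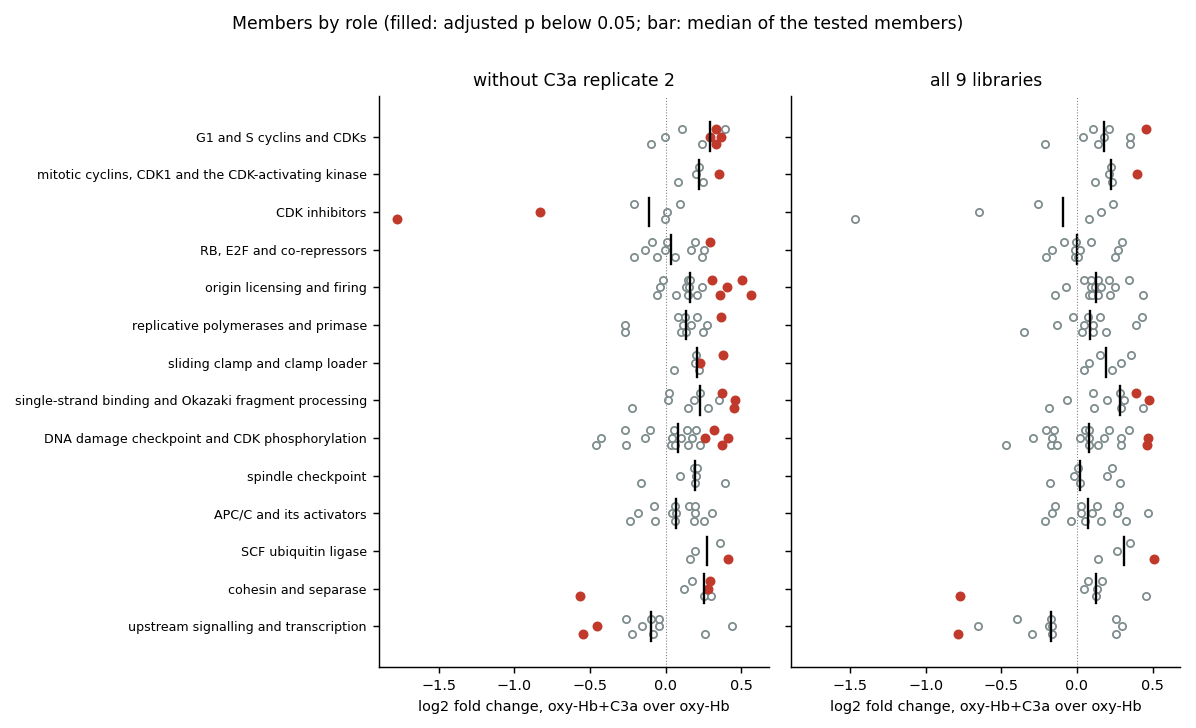
Each point is 1 of the 140 tested members, placed by its role (rows) and by its log2 fold change, C3a over oxy-Hb (horizontal axis), without C3a replicate 2 (left) and with all 9 libraries (right). Filled points passed an adjusted p of 0.05 (29 members on the left, 9 on the right), and black bars are medians of the tested members, which for the G1 and S cyclins and CDKs were 0.30 and 0.18.

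Ccne1 and Ccne2 encode the E-type cyclins that partner CDK2 at the start of S phase. Ccne1 (ENSMUSG00000002068, chr7:38097984-38107534, minus strand, all gene coordinates in GRCm38) had 50.3, 53.3 and 61.4 CPM in C3a libraries, 38.3, 36.2 and 39.1 CPM in C3aRA libraries, and 37.2, 44.9 and 47.1 CPM in oxy-Hb libraries. The 3 C3a libraries were the highest of the 9 and did not overlap either other group. Against oxy-Hb the log2 difference of Ccne1 was 0.35 ± 0.12 (SE; edgeR adjusted p = 0.111), and without C3a replicate 2 it was 0.37 ± 0.12 (edgeR adjusted p = 0.0441, with a range of 0.00612 to 0.368 over the alternatives). Against C3aRA it was 0.54 ± 0.12 (edgeR adjusted p = 0.0261, 0.000696 to 0.112 over the alternatives), so Ccne1 rose in that comparison.

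Ccne2 (ENSMUSG00000028212, chr4:11191351-11204779, plus strand) had 43.1, 42.1 and 51.0 CPM in C3a libraries, 26.3, 28.2 and 20.9 CPM in C3aRA libraries, and 24.2, 36.4 and 46.1 CPM in oxy-Hb libraries. The oxy-Hb libraries were spread widely and overlapped both other groups, while the C3a and C3aRA libraries did not overlap each other. The log2 difference of C3a from C3aRA was 0.85 ± 0.20 (edgeR adjusted p = 0.0278, 6.54e-05 to 0.112 over the alternatives). From oxy-Hb, C3a differed by 0.35 ± 0.19 (edgeR adjusted p = 0.288) and C3aRA by -0.50 ± 0.20 (edgeR adjusted p = 0.547), and neither passed. Ccne2 shares 609 exonic bases (17.4% of its exonic length) with Ints8 on the opposite strand, and no source used here gives the strand setting of the counting. The summed level of both E-type cyclins was 93.3, 95.3 and 112 CPM in C3a libraries, 64.6, 64.4 and 60.0 CPM in C3aRA libraries, and 61.4, 81.4 and 93.2 CPM in oxy-Hb libraries.

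**Figure D2:**
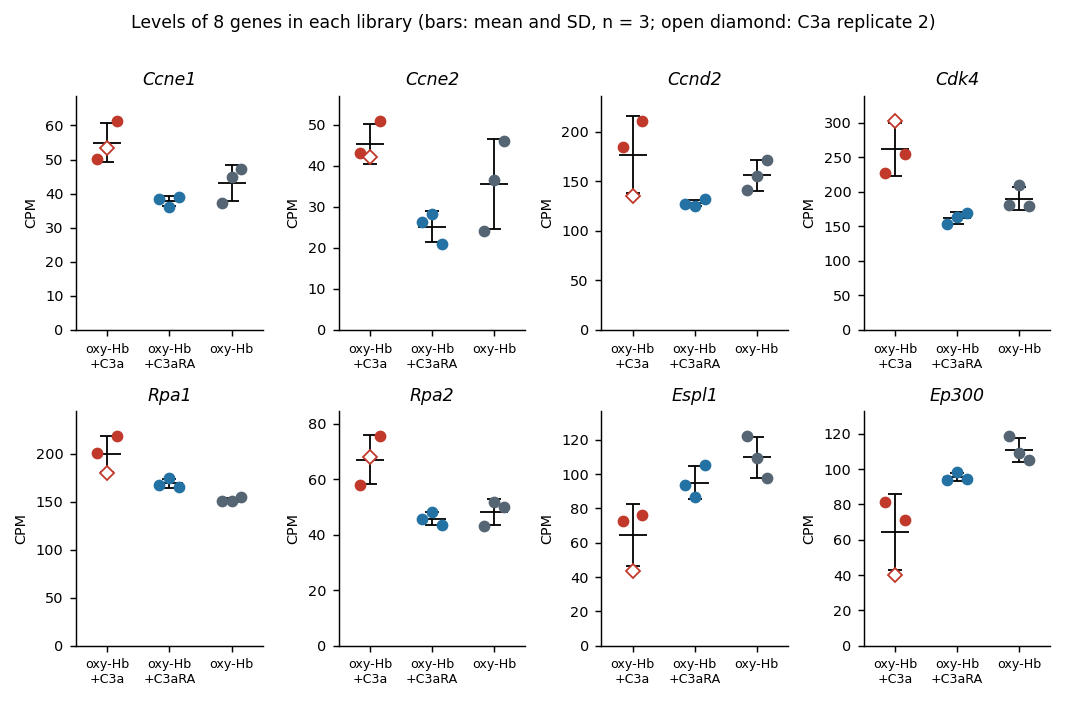
CPM (vertical axes, from 0) of 8 genes in the 3 C3a, 3 C3aRA and 3 oxy-Hb libraries, with mean and SD (n = 3); the open diamond is C3a replicate 2. The C3a libraries are the 3 highest for Ccne1, Cdk4, Rpa1 and Rpa2 and the 3 lowest for Espl1 and Ep300, while the oxy-Hb libraries of Ccne2 run from 24.2 to 46.1 CPM.

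Among the other G1 and S genes the kinase Cdk4 rose, and the D-type cyclins gave no call over the 9 libraries. Cdk4, the kinase that D-type cyclins activate (chr10:127063534-127067920, plus strand), had 227, 303 and 255 CPM in C3a libraries, 153, 164 and 169 CPM in C3aRA libraries, and 181, 209 and 179.6 CPM in oxy-Hb libraries. All 3 C3a values lay above all others, and all 3 C3aRA values below all others. Cdk4 rose by 0.46 ± 0.12 on the log2 scale over oxy-Hb (edgeR adjusted p = 0.0440, 7.03e-05 to 0.215 over the alternatives) and by 0.69 ± 0.12 over C3aRA (edgeR adjusted p = 0.00828, 6.12e-07 to 0.0689 over the alternatives). It shares 641 exonic bases with Tspan31 on the opposite strand.

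Ccnd2 (cyclin D2) had 184, 135 and 211 CPM in C3a libraries, 127, 126 and 132 CPM in C3aRA libraries, and 141, 155 and 172 CPM in oxy-Hb libraries. C3a replicate 2 was the lowest of its group and lay below all oxy-Hb values, whereas replicates 1 and 3 lay above them, and the C3aRA libraries were the 3 lowest of the 9. Over C3aRA the log2 difference was 0.46 ± 0.14 (edgeR adjusted p = 0.0650), and 0.62 ± 0.09 without C3a replicate 2 (edgeR adjusted p = 9.47e-06, with 8.4e-07 to 0.198 over the alternatives). Ccnd1 (cyclin D1) had 117, 107 and 142 CPM in C3a libraries, 85.6, 106 and 102 CPM in C3aRA libraries, and 99.4, 112 and 105 CPM in oxy-Hb libraries, so C3a replicate 2 lay inside the oxy-Hb range. Ccnd3 (cyclin D3) had 69.5, 78.5 and 52.7 CPM in C3a libraries, 62.5, 61.5 and 70.99 CPM in C3aRA libraries, and 72.03, 70.3 and 53.2 CPM in oxy-Hb libraries, and its 3 groups overlapped. With all 9 libraries and a length and GC correction, Ccnd2 rose over oxy-Hb, and Ccnd1 and Ccnd2 rose over C3aRA. With that correction 4.71% of all genes rose over oxy-Hb and 4.95% over C3aRA, with all-gene medians of 0.10 and 0.04. Cdk2, the partner of the E-type cyclins, had 56.0, 60.5 and 67.0 CPM in C3a libraries, 53.0, 49.9 and 54.1 CPM in C3aRA libraries, and 54.6, 55.4 and 60.8 CPM in oxy-Hb libraries, and C3a and oxy-Hb overlapped. Of the 9 G1 and S cyclin and CDK genes, 1 rose in C3a over oxy-Hb with a median log2 difference of 0.18. Without C3a replicate 2, 4 rose (Ccnd1, Ccnd2, Ccne1 and Cdk4) and the median was 0.30.

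Of the 5 genes for mitotic cyclins, CDK1 and the CDK-activating kinase, 1 rose in C3a over oxy-Hb, and their median log2 difference was 0.22. Ccnh, the cyclin of the CDK-activating kinase, had 89.8, 105 and 106 CPM in C3a libraries, 81.2, 81.4 and 77.3 CPM in C3aRA libraries, and 75.7, 75.2 and 77.5 CPM in oxy-Hb libraries. The C3a values lay above all others. It rose over oxy-Hb by 0.40 ± 0.10 on the log2 scale (edgeR adjusted p = 0.0447, 0.00716 to 0.192 over the alternatives). Ccnb1 (cyclin B1) had 332, 275 and 369 CPM in C3a libraries, 283, 309.9 and 305 CPM in C3aRA libraries, and 291, 304 and 305 CPM in oxy-Hb libraries, with C3a replicate 2 the lowest of the 9. Ccna2 (cyclin A2) had 175, 139 and 179 CPM in C3a libraries, 149, 179 and 160.2 CPM in C3aRA libraries, and 156, 141 and 152 CPM in oxy-Hb libraries. Cdk1, the mitotic kinase, had 165, 187 and 191 CPM in C3a libraries, 143, 172 and 175 CPM in C3aRA libraries, and 148, 166 and 149 CPM in oxy-Hb libraries. For Ccna2 and Cdk1 the C3a and oxy-Hb libraries overlapped.

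The CDK inhibitors did not move as a group: none of 6 passed over the 9 libraries, and their median log2 difference of C3a from oxy-Hb was -0.09. With C3a replicate 2 left out, Cdkn1c and Cdkn2b fell. With the length and GC correction neither passed, with or without that library, and Cdkn2a (p16 and p19) rose in both fits. Of all genes 4.71% rose in the corrected fit with that library and 8.33% in the corrected fit without it. Cdkn1c (p57) is low in these cells, with 0.355, 1.15 and 1.005 CPM in C3a libraries, 1.65, 2.83 and 1.33 CPM in C3aRA libraries, and 2.95, 2.12 and 1.95 CPM in oxy-Hb libraries, where 3 counts correspond to 0.1562 to 0.2359 CPM. Its log2 difference from oxy-Hb was -1.47 ± 0.48 (edgeR adjusted p = 0.0938), and -1.78 ± 0.54 without C3a replicate 2 (edgeR adjusted p = 0.0305, 0.0305 to 0.306 over the alternatives). Cdkn2b (p15) had 6.99, 8.70 and 5.61 CPM in C3a libraries, 8.97, 7.86 and 11.9 CPM in C3aRA libraries, and 13.6, 8.73 and 11.2 CPM in oxy-Hb libraries. All C3a values of both genes lay below all oxy-Hb values, for Cdkn2b by a narrow margin. Cdkn2b differed by -0.65 ± 0.23 (edgeR adjusted p = 0.115), and by -0.83 ± 0.23 without C3a replicate 2 (edgeR adjusted p = 0.0192, 0.0192 to 0.386 over the alternatives). Cdkn1b (p27) had 39.5, 33.4 and 35.5 CPM in C3a libraries, 46.0, 44.3 and 38.2 CPM in C3aRA libraries, and 42.4, 42.3 and 45.1 CPM in oxy-Hb libraries.

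Of the 12 genes for RB proteins, E2F factors and co-repressors none passed for C3a over oxy-Hb, and their median log2 difference lay near 0. E2f1 had 31.0, 32.7 and 32.0 CPM in C3a libraries, 24.6, 26.3 and 27.4 CPM in C3aRA libraries, and 33.8, 31.0 and 29.6 CPM in oxy-Hb libraries, so C3a and oxy-Hb overlapped and the C3aRA libraries were the 3 lowest. Hdac1, a histone deacetylase recruited by RB, had 96.8, 111 and 106 CPM in C3a libraries, 76.8, 82.6 and 74.0 CPM in C3aRA libraries, and 89.6, 87.4 and 77.5 CPM in oxy-Hb libraries. It rose in C3a over C3aRA by 0.43 ± 0.11 on the log2 scale (edgeR adjusted p = 0.0329, 0.00486 to 0.144 over the alternatives). Processed copies of Hdac1 match it at 95% identity or more, and reads could be split between them.

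For the 6 helicase subunits Mcm2 to Mcm7 C3a replicate 2 lay apart from the other C3a libraries. Their summed level was 1331, 1017 and 1402 CPM in C3a libraries, 1134, 1119 and 1166 CPM in C3aRA libraries, and 1078, 1113 and 1077 CPM in oxy-Hb libraries. C3a replicates 1 and 3 were the 2 highest of the 9 libraries and C3a replicate 2 the lowest. None of the 6 passed over the 9 libraries (median log2 difference 0.18), whereas without C3a replicate 2 the genes Mcm2, Mcm4, Mcm5 and Mcm7 rose, both remaining C3a libraries lay above all oxy-Hb libraries for all 6 genes, and the median was 0.33. With all 9 libraries and the length and GC correction, Mcm4 and Mcm7 rose over oxy-Hb, and Mcm4 rose over C3aRA. The corrected median over oxy-Hb was 0.27 for the 6 genes and 0.10 for all genes. Mcm4 had 189, 159 and 243 CPM in C3a libraries, 146, 149 and 143 CPM in C3aRA libraries, and 138, 146 and 151 CPM in oxy-Hb libraries, and was the only 1 of the 6 whose 3 C3a libraries all lay above oxy-Hb. Its log2 difference was 0.44 ± 0.13 (edgeR adjusted p = 0.0730), and 0.57 ± 0.09 without C3a replicate 2 (edgeR adjusted p = 3.37e-05, 2.17e-05 to 0.264 over the alternatives).

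Mcm7 had 204, 142 and 214 CPM in C3a libraries, 154, 150.3 and 164 CPM in C3aRA libraries, and 141, 156 and 143 CPM in oxy-Hb libraries. Its log2 difference of C3a from oxy-Hb was 0.35 ± 0.13 (edgeR adjusted p = 0.138), and 0.50 ± 0.08 without C3a replicate 2 (edgeR adjusted p = 4.78e-05, 3.12e-07 to 0.356 over the alternatives). Mcm5 had 181, 132 and 197 CPM in C3a libraries, 157, 148 and 157 CPM in C3aRA libraries, and 143, 158 and 139 CPM in oxy-Hb libraries, and differed by 0.21 ± 0.13 (edgeR adjusted p = 0.329), or 0.36 ± 0.08 without C3a replicate 2 (edgeR adjusted p = 0.00361, 0.000105 to 0.678 over the alternatives). For both genes C3a replicate 2 lay within or below the oxy-Hb range and the other C3a libraries above it. Mcm2 had 119, 74.3 and 104 CPM in C3a libraries, 87.4, 96.6 and 110.2 CPM in C3aRA libraries, and 89.2, 95.6 and 84.7 CPM in oxy-Hb libraries. Within the C3a group, Mcm3 had 142 CPM in replicate 2, against 193 and 189 CPM in replicates 1 and 3, and Mcm6 had 367 CPM in replicate 2, against 444 and 455 CPM in replicates 1 and 3. A processed copy of Mcm7 exists, and part of its exonic length lies opposite Ap4m1 (321 bases).

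**Figure D3:**
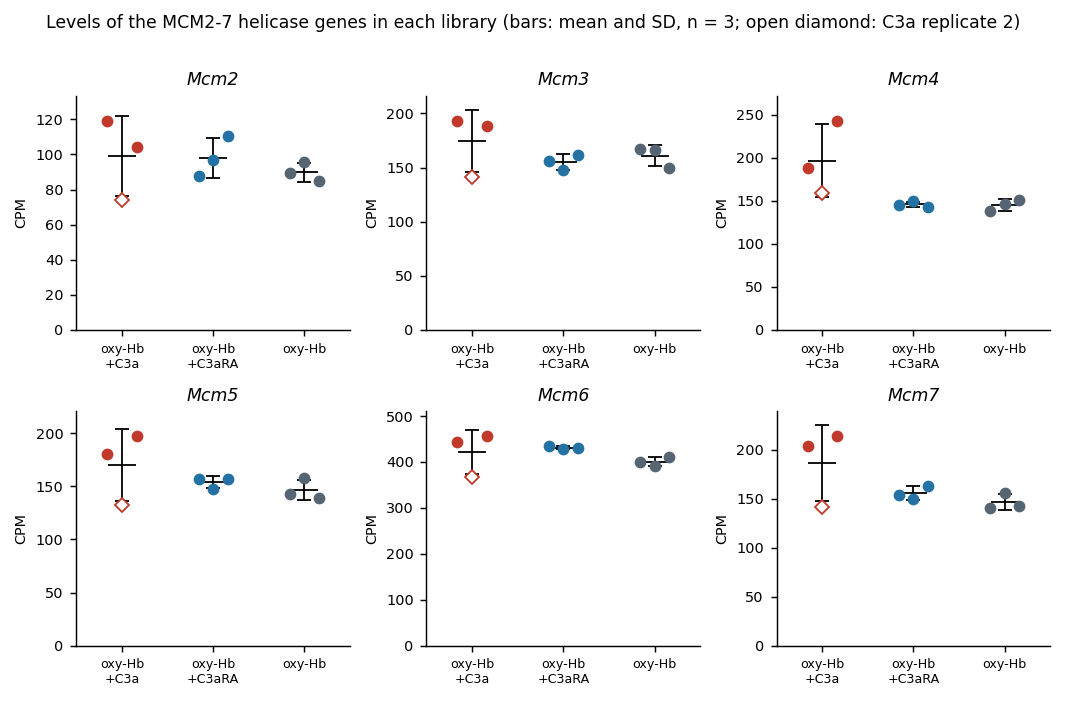
CPM (vertical axes, from 0) of the 6 helicase genes in the 3 C3a, 3 C3aRA and 3 oxy-Hb libraries, with mean and SD (n = 3); the open diamond is C3a replicate 2. For all 6 genes C3a replicate 2 lies below the other C3a libraries, which are above every oxy-Hb library, and for Mcm4 it is also above oxy-Hb, at 159 CPM.

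Of all 16 origin licensing and firing genes, 5 rose without C3a replicate 2 and none over the 9 libraries. Besides the 4 helicase genes this was Cdc6, the loader of the helicase, with 56.8, 42.9 and 69.1 CPM in C3a libraries, 41.4, 41.1 and 39.0 CPM in C3aRA libraries, and 42.2, 50.6 and 48.7 CPM in oxy-Hb libraries. C3a replicate 2 of Cdc6 lay within the oxy-Hb range and the C3aRA libraries were the 3 lowest of the 9. Over C3aRA its log2 difference was 0.47 ± 0.15 (edgeR adjusted p = 0.0781), and 0.63 ± 0.11 without C3a replicate 2 (edgeR adjusted p = 0.000278, 0.000105 to 0.213 over the alternatives). The 6 ORC genes had a median of 0.12 over oxy-Hb, with none called in either fit, and Orc1 had 18.4, 17.3 and 21.8 CPM in C3a libraries, 14.5, 14.6 and 16.1 CPM in C3aRA libraries, and 15.8, 18.9 and 17.3 CPM in oxy-Hb libraries.

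At the fork, RPA, the complex that coats single-stranded DNA, had its 3 highest values in the C3a libraries for all 3 subunits. Its summed level was 291, 287 and 328 CPM in C3a libraries, 239.6, 249.9 and 233 CPM in C3aRA libraries, and 217, 231 and 231 CPM in oxy-Hb libraries, and the C3a values lay above all others with and without replicate 2. Rpa1 had 200.3, 180.4 and 218 CPM in C3a libraries, 168, 175 and 165 CPM in C3aRA libraries, and 150.2, 151 and 155 CPM in oxy-Hb libraries. It rose over oxy-Hb by 0.39 ± 0.10 on the log2 scale (edgeR adjusted p = 0.0409), and by 0.46 ± 0.08 without C3a replicate 2 (edgeR adjusted p = 0.000135, 1.05e-05 to 0.190 over the alternatives). For Rpa1 no group overlapped another, with C3a highest and oxy-Hb lowest.

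Rpa2 had 58.0, 68.0 and 75.5 CPM in C3a libraries, 45.7, 48.2 and 43.5 CPM in C3aRA libraries, and 43.1, 51.8 and 49.9 CPM in oxy-Hb libraries, so C3a was highest and the other groups overlapped. It rose by 0.48 ± 0.12 over oxy-Hb (edgeR adjusted p = 0.0471, 0.0012 to 0.233 over the alternatives) and by 0.55 ± 0.12 over C3aRA (edgeR adjusted p = 0.0227, 0.000949 to 0.110 over the alternatives). Rpa3, the smallest subunit, had 32.5, 38.7 and 34.2 CPM in C3a libraries, 26.0, 27.0 and 25.0 CPM in C3aRA libraries, and 23.6, 27.9 and 26.3 CPM in oxy-Hb libraries. It did not pass over the 9 libraries or without C3a replicate 2, although its C3a libraries lay above all others. Rpa3 rose over oxy-Hb with the length and GC correction over 9 libraries, where the median over all genes was 0.10, against 0.00 without the correction. Of the 11 single-strand binding and Okazaki fragment genes, 2 rose over the 9 libraries (median 0.28) and 3 without C3a replicate 2, where Lig1, the DNA ligase of the lagging strand, joined Rpa1 and Rpa2. Lig1 had 101, 62.5 and 91.7 CPM in C3a libraries, 77.9, 73.2 and 82.1 CPM in C3aRA libraries, and 74.9, 70.1 and 76.9 CPM in oxy-Hb libraries. Fen1, the flap endonuclease, was counted at 0.566 to 4.03 CPM, and 78.8% of its exonic bases lie opposite an antisense gene.

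Pcna had 561, 641 and 583 CPM in C3a libraries, 469, 467 and 463 CPM in C3aRA libraries, and 466, 498 and 496 CPM in oxy-Hb libraries. The C3a libraries were the 3 highest, and Pcna rose over C3aRA by 0.35 ± 0.09 on the log2 scale (edgeR adjusted p = 0.0403, 0.00269 to 0.162 over the alternatives), a call that was lost with the length and GC correction. It has a processed copy, and reads could be split between them. The clamp and its loader together (6 genes) gave no call over oxy-Hb in the 9 libraries with a median of 0.19, and 2 calls (Pcna and Rfc3) without C3a replicate 2. Among the 12 polymerase and primase genes, Pole3, a histone-fold subunit of polymerase epsilon, had 58.2, 66.3 and 60.5 CPM in C3a libraries, 47.2, 41.4 and 45.8 CPM in C3aRA libraries, and 43.7, 40.6 and 53.2 CPM in oxy-Hb libraries. It rose over C3aRA by 0.46 ± 0.12 (edgeR adjusted p = 0.0428, 0.0116 to 0.160 over the alternatives). The catalytic subunit gene Pole had 77.8, 35.4 and 87.2 CPM in C3a libraries, 75.2, 78.5 and 81.6 CPM in C3aRA libraries, and 74.6, 72.7 and 71.9 CPM in oxy-Hb libraries, so its lowest value was in C3a replicate 2. Pola1, of polymerase alpha, had 142, 86.8 and 148 CPM in C3a libraries, 128, 129 and 133 CPM in C3aRA libraries, and 112, 111 and 142 CPM in oxy-Hb libraries, again with C3a replicate 2 the lowest.

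In the checkpoint group the 14-3-3 proteins, which bind phosphorylated CDC25 and keep it from CDK1, made up the calls. Their summed level over 6 genes was 2160, 2369 and 2255 CPM in C3a libraries, 1921, 1931 and 1927 CPM in C3aRA libraries, and 1815, 1824 and 1899 CPM in oxy-Hb libraries, and C3a replicate 2 was the highest of the 9. Ywhaz (14-3-3 zeta) had 387, 453 and 425 CPM in C3a libraries, 287, 290.1 and 292 CPM in C3aRA libraries, and 292, 303 and 319 CPM in oxy-Hb libraries. All C3a values lay above all others. Ywhaz rose by 0.47 ± 0.10 over oxy-Hb (edgeR adjusted p = 0.0167, 0.000129 to 0.126 over the alternatives) and by 0.54 ± 0.10 over C3aRA (edgeR adjusted p = 0.00910, 1.09e-05 to 0.0706 over the alternatives). Ywhah (14-3-3 eta) had 186, 227 and 196 CPM in C3a libraries, 137, 161 and 152 CPM in C3aRA libraries, and 133, 161 and 146 CPM in oxy-Hb libraries, and rose by 0.47 ± 0.11 over oxy-Hb (edgeR adjusted p = 0.0363, 0.00061 to 0.210 over the alternatives). Without C3a replicate 2, 4 of the 6 rose over oxy-Hb, with Ywhab and Ywhaq added. A processed copy of Ywhaz exists, and 14-3-3 proteins also act outside the cell cycle.

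The large checkpoint kinases behaved otherwise: the summed level of Atm, Atr and Prkdc, which sense broken or stalled DNA, was 507, 217 and 553 CPM in C3a libraries, 499, 496 and 462 CPM in C3aRA libraries, and 485, 456 and 495 CPM in oxy-Hb libraries. Atm alone had 227, 74.6 and 243 CPM in C3a libraries, 211, 200.5 and 204 CPM in C3aRA libraries, and 204, 196 and 211 CPM in oxy-Hb libraries. C3a replicate 2 was far below the other 8 libraries. The median log2 difference of the 3 kinases over oxy-Hb was -0.16, and 0.15 without that library. When transcript length and GC content were corrected for over the 9 libraries, it was 0.02, against 0.10 over all genes. Chek1, which acts below ATR, had 101, 82.7 and 104 CPM in C3a libraries, 90.8, 89.7 and 80.6 CPM in C3aRA libraries, and 85.1, 86.0 and 90.0 CPM in oxy-Hb libraries. Wee1, the kinase that inhibits CDK1, had 19.8, 26.5 and 23.1 CPM in C3a libraries, 18.4, 17.8 and 19.0 CPM in C3aRA libraries, and 20.0, 21.1 and 20.2 CPM in oxy-Hb libraries. Both overlapped between C3a and oxy-Hb. Of the 20 tested checkpoint genes 2 rose over the 9 libraries and 4 without C3a replicate 2, and none fell in either fit.

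Mitotic genes other than separase gave no call over oxy-Hb in the 9 libraries. None of the 7 spindle checkpoint genes and none of the 14 APC/C genes passed, with or without C3a replicate 2; their medians over the 9 libraries were 0.02 and 0.07, and both turned negative under total-count scaling. With the length and GC correction and without C3a replicate 2, 2 spindle checkpoint genes and 1 APC/C gene rose. In that fit 8.33% of all genes rose, and 72.6% of the calls over all genes were upward. Bub1, a spindle checkpoint kinase, had 474, 291 and 439 CPM in C3a libraries, 409, 398 and 389 CPM in C3aRA libraries, and 387, 371 and 432 CPM in oxy-Hb libraries. Cdc20, an activator of the APC/C, had 138, 113 and 132 CPM in C3a libraries, 139, 142 and 140.5 CPM in C3aRA libraries, and 135, 157 and 131 CPM in oxy-Hb libraries. Plk1, the mitotic polo kinase, had 49.6, 33.3 and 47.1 CPM in C3a libraries, 50.8, 47.8 and 54.0 CPM in C3aRA libraries, and 49.8, 53.1 and 56.0 CPM in oxy-Hb libraries, with C3a replicate 2 lowest for all 3 genes. Anapc1, the largest APC/C subunit, had 407, 241 and 413 CPM in C3a libraries, 426, 426 and 439 CPM in C3aRA libraries, and 413, 391 and 385 CPM in oxy-Hb libraries.

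Skp1a, the adaptor of the SCF ubiquitin ligase that removes p27 and cyclin E, had 279.7, 353 and 308 CPM in C3a libraries, 216, 228 and 217 CPM in C3aRA libraries, and 203, 206 and 251 CPM in oxy-Hb libraries. The C3a libraries were the 3 highest. Skp1a rose by 0.51 ± 0.11 over oxy-Hb (edgeR adjusted p = 0.0258, 0.000379 to 0.169 over the alternatives) and by 0.51 ± 0.11 over C3aRA (edgeR adjusted p = 0.0227, 0.000347 to 0.123 over the alternatives). It was the 1 call among 4 SCF genes, whose median over oxy-Hb was 0.31. SKP1 belongs to SCF complexes with many other substrates too.

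Separase and the coactivators p300 and CBP were lower in C3a libraries. Espl1 (chr15:102296266-102324357, plus strand) had 72.9, 43.4 and 76.2 CPM in C3a libraries, 93.5, 86.4 and 105 CPM in C3aRA libraries, and 122, 109.6 and 97.8 CPM in oxy-Hb libraries. All C3a values lay below all others, with replicate 2 the lowest. Espl1 fell relative to oxy-Hb, with a log2 difference of -0.77 ± 0.18 (edgeR adjusted p = 0.0306), or -0.56 ± 0.10 without C3a replicate 2 (edgeR adjusted p = 0.000274, 0.000274 to 0.169 over the alternatives). The 5 cohesin core genes, by contrast, had a median of 0.13 over the 9 libraries with no call, and Smc1a, a core cohesin ATPase, had 521, 361 and 526 CPM in C3a libraries, 488, 435 and 455 CPM in C3aRA libraries, and 425, 415 and 447 CPM in oxy-Hb libraries.

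Ep300 encodes the acetyltransferase p300, a coactivator of many genes besides E2F targets (chr15:81585351-81652077, plus strand). It had 81.6, 40.0 and 71.2 CPM in C3a libraries, 93.8, 98.3 and 94.4 CPM in C3aRA libraries, and 119, 109 and 105 CPM in oxy-Hb libraries, and no group overlapped another. Ep300 fell relative to oxy-Hb, with a log2 difference of -0.79 ± 0.19 (edgeR adjusted p = 0.0409), or -0.54 ± 0.09 without C3a replicate 2 (edgeR adjusted p = 0.000148, 0.000148 to 0.189 over the alternatives). Its paralogue Crebbp had 28.7, 17.1 and 28.1 CPM in C3a libraries, 38.1, 27.8 and 33.8 CPM in C3aRA libraries, and 37.3, 39.3 and 39.6 CPM in oxy-Hb libraries, all C3a values below all oxy-Hb values. Crebbp differed by -0.66 ± 0.18 (edgeR adjusted p = 0.0552), and by -0.45 ± 0.13 without C3a replicate 2 (edgeR adjusted p = 0.0235, 0.00224 to 0.233 over the alternatives), where the length and GC correction ended the call. Of the 11 tested upstream signalling and transcription genes, these were the calls: 1 lower over the 9 libraries (median -0.17) and 2 lower without C3a replicate 2 (median -0.10). With the correction for length and GC content over the 9 libraries that median was 0.03, against 0.10 over all genes. The median of Ep300 and Crebbp was -0.72 without the correction and -0.36 with it, and Ep300 was called in both fits.

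**Figure D4:**
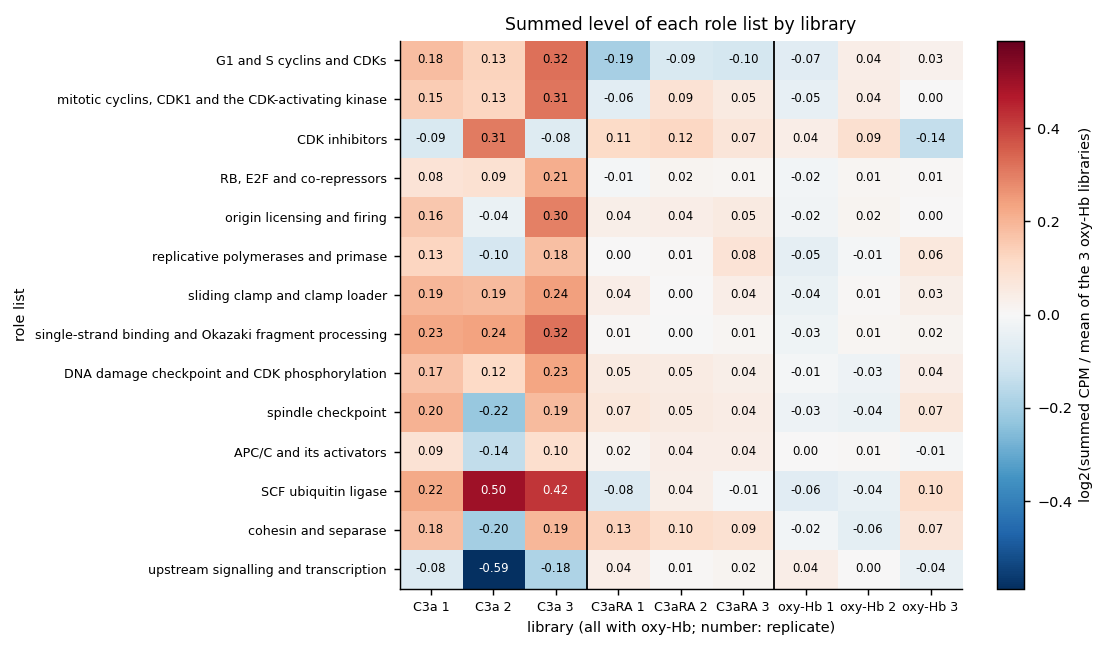
Each cell is the log2 ratio of the summed CPM of a role list (rows) in 1 library (columns) to the mean of the 3 oxy-Hb libraries. C3a replicates 1 and 3 are above 0 for 12 of 14 lists, and C3a replicate 2 departs from them most for upstream signalling and transcription (-0.59), CDK inhibitors (0.31) and the spindle checkpoint (-0.22).

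C3a and C3aRA libraries were next set against each other, which compares both agents under the same oxy-Hb exposure and shares the C3a libraries with the comparison above. Over the 9 libraries 10 members rose in C3a over C3aRA and none fell; of all tested genes 6.19% passed (2.87% higher and 3.32% lower). The 10 were Cdk4, Ywhaz, Rpa2, Skp1a, Ccne1, Ccne2, Hdac1, Ywhah, Pcna and Pole3. The median log2 difference was 0.09 over the members and 0.01 over all genes. All C3a libraries lay above all C3aRA libraries for 41 members and below them for 17, against 14.1% and 14.7% of all genes. Without C3a replicate 2, 32 members rose and 4 fell (12.5% of all genes, 5.97% higher and 6.54% lower), all 10 among them, and 68 lay above and 24 below (21.0% and 20.9% of all genes). With the correction for length and GC content 21 rose and none fell (8.26% of all genes, 4.95% higher and 3.3% lower). Pcna was the 1 of the 10 calls that was lost. Over all genes 60.0% of the calls were upward, against 46.3% without the correction. The corrected median was 0.09 over the members and 0.04 over all genes. When the C3a and C3aRA libraries were fitted alone, 3 members passed (0.875% of all genes), and with the correction and without C3a replicate 2, 38 passed (13.4%). The count of 10 was 0, 1 and 2 without C3aRA replicates 1, 2 and 3, 3 without C3a replicate 3, 6 without oxy-Hb replicate 1 or without oxy-Hb replicate 2, 27 without C3a replicate 1 and 36 without C3a replicate 2.

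The G1 and S cyclins and CDKs held 3 of the 10 calls, Ccne1, Ccne2 and Cdk4, with a median of 0.32 over the group's 9 genes. The replication groups held Rpa2, Pcna and Pole3, the 14-3-3 proteins held Ywhaz and Ywhah, and the remaining calls were Skp1a and Hdac1. Ywhah differed from C3aRA by 0.44 ± 0.11 (edgeR adjusted p = 0.0377, 0.00499 to 0.188 over the alternatives). Without C3a replicate 2 the origin licensing and firing genes added Cdc6, Mcm3, Mcm4, Mcm5 and Mcm7, and the fork genes added Rpa1, Lig1 and Dna2, all higher. Mcm4 then differed by 0.56 ± 0.09 (edgeR adjusted p = 4.81e-05, 2.35e-05 to 0.191 over the alternatives) and Mcm7 by 0.42 ± 0.08 (edgeR adjusted p = 0.000503, 1.89e-05 to 0.498 over the alternatives). The 4 that fell in that fit were Gadd45a, Espl1, Ep300 and Myc.

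Gadd45a, a stress-induced inhibitor of CDK1, had 8.35, 17.4 and 7.21 CPM in C3a libraries, 16.8, 12.4 and 18.6 CPM in C3aRA libraries, and 12.3, 10.1 and 9.04 CPM in oxy-Hb libraries. C3a replicate 2 lay among the C3aRA values and the other C3a libraries were the 2 lowest of the 9. The log2 difference of C3a from C3aRA was -0.53 ± 0.29 (edgeR adjusted p = 0.278), and -1.04 ± 0.21 without that library (edgeR adjusted p = 0.00085, 0.000365 to 0.559 over the alternatives). Myc, the transcription factor that drives growth, was low, at 1.78, 3.65 and 1.60 CPM in C3a libraries, 4.95, 4.09 and 2.95 CPM in C3aRA libraries, and 1.95, 2.80 and 1.10 CPM in oxy-Hb libraries. Its difference from C3aRA was -0.76 ± 0.41 (edgeR adjusted p = 0.272), and -1.24 ± 0.41 without C3a replicate 2 (edgeR adjusted p = 0.0435, 0.0254 to 0.568 over the alternatives).

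For C3aRA against oxy-Hb alone no member passed, and no gene of the 14146 tested did (0.0%). At an unadjusted edgeR p below 0.05 there were 7 members and 1153 genes, DESeq2 called 19 genes and no member, and limma-voom called none. The median log2 difference of the members was 0.01 (-0.057 with total-count scaling), and -0.01 over all genes. All C3aRA libraries lay above all oxy-Hb libraries for 20 members and below them for 13, against 11.9% and 11.0% of all genes. When C3a replicate 2, which is in neither group, was left out of the shared estimate of spread, Rb1 and Gadd45a rose and Ccnd2 and Dna2 fell, against 3.25% of all genes (1.88% higher and 1.38% lower). When the C3aRA and oxy-Hb libraries were fitted alone 5 members passed (4.43% of all genes), and 11 did with the length and GC correction and without C3a replicate 2 (7.63%). The 2 comparisons with oxy-Hb share its libraries, so their values are not independent.

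The members with the lowest p upwards in this comparison were Rb1, Myc, Stag2 and Gadd45a. Rb1, the retinoblastoma protein gene, had 71.0, 56.7 and 58.6 CPM in C3aRA libraries and 51.4, 44.5 and 43.6 CPM in oxy-Hb libraries, which did not overlap. Its log2 difference was 0.42 ± 0.14 (edgeR adjusted p = 0.490, 0.0155 to 0.990 over the alternatives). Stag2, a cohesin subunit, had 508, 518 and 478 CPM in C3aRA libraries and 424, 405 and 457 CPM in oxy-Hb libraries, a difference of 0.23 ± 0.10 (edgeR adjusted p = 0.605). Gadd45a differed by 0.61 ± 0.29 (edgeR adjusted p = 0.611) and Myc by 1.02 ± 0.41 (edgeR adjusted p = 0.564), from the values given above. The lowest p downwards belonged to Pkmyt1, Ccne2, Dna2 and E2f1. Pkmyt1, a CDK1-inhibiting kinase, had 13.4, 11.2 and 11.8 CPM in C3aRA libraries and 15.02, 16.7 and 16.5 CPM in oxy-Hb libraries, a difference of -0.41 ± 0.16 (edgeR adjusted p = 0.539). Dna2, a nuclease that trims Okazaki flaps, had 36.8, 45.5 and 43.1 CPM in C3aRA libraries and 54.1, 54.2 and 59.3 CPM in oxy-Hb libraries, a difference of -0.42 ± 0.18 (edgeR adjusted p = 0.601, 0.0127 to 0.990 over the alternatives). E2f1 differed by -0.27 ± 0.12 (edgeR adjusted p = 0.603) and Ccnd2 by -0.29 ± 0.14 (edgeR adjusted p = 0.618, 0.0211 to 0.990 over the alternatives).

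In the authors' deposited table, which sets its own adjusted p, 3 members were higher (Ywhaz, Skp1a and Ywhah) and 3 lower (Espl1, Ep300 and Crebbp) in C3a over oxy-Hb below 0.05, where 2.21% of its genes passed (0.379% higher and 1.84% lower). For C3aRA over oxy-Hb the authors' deposited table had 3 members higher (Rb1, Stag2 and Gadd45a) and 2 lower (Dna2 and Ccnd2), where 3.12% of its genes passed (2.06% higher and 1.06% lower). Rpa1, Cdk4, Rpa2 and Ccnh stood at adjusted p of 0.0528, 0.0543, 0.0643 and 0.0723 for C3a in the authors' deposited table.

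The difference of C3a from oxy-Hb varied with transcript length among the members, as it did over all genes. Over the 140 tested members, Spearman's rho between the log2 difference and the length of the longest transcript was -0.335 with the 9 libraries and 0.0098 without C3a replicate 2; members are genes of the same libraries and not independent replicates. The 35 shortest members (682 to 2181 bases) had a median difference of 0.22 and the 35 longest (4591 to 12647 bases) one of 0.00, against 0.15 and 0.15 without that library. With GC content rho was -0.222 and, without C3a replicate 2, -0.354. Over all genes rho was -0.238 with length and -0.154 with GC content. Without C3a replicate 2 these all-gene values were -0.014 and -0.279. With a correction for length and GC content 17 members rose and 2 fell over oxy-Hb (7.02% of all genes, 4.71% higher and 2.31% lower), and all 9 calls were among them. The 10 added, all higher, were Ccnd2, Cdkn2a, Mcm4, Mcm7, Pold2, Pole3, Rnaseh2c, Rpa3, Ywhab and Smad2. With that correction 67.0% of the calls over all genes were upward, against 22.9% without it. The median was then 0.16 over the members and 0.10 over all genes, against 0.11 and 0.00 without the correction. The correction thus raised the median of all genes as well as that of the members. With the correction and without C3a replicate 2, 39 rose and 2 fell (11.5% of all genes, 8.33% higher and 3.14% lower).

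**Figure D5:**
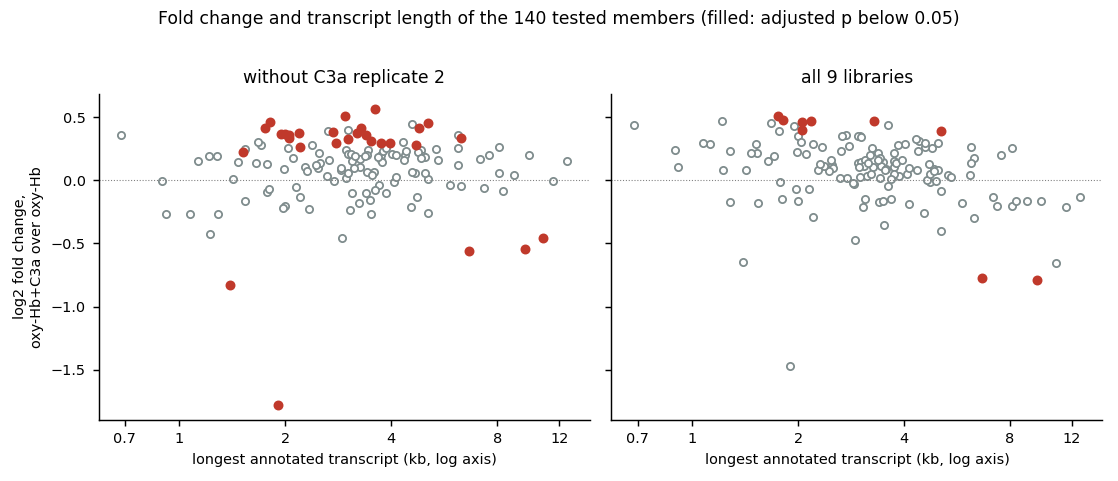
Log2 fold change of C3a over oxy-Hb (vertical axis) against the length of the longest annotated transcript (kb, log axis) for the 140 tested members, without C3a replicate 2 (left) and with all 9 libraries (right); filled points passed an adjusted p of 0.05. On the right the longest members lie lower than the shortest ones (median 0.00 and 0.22), and on the left they do not (0.15 and 0.15).

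Sequence and response were set side by side last. Promoters were matched for 16 of the 24 members that rose over oxy-Hb without C3a replicate 2. Of their 20 promoters 8 (40.0%) held an E2F word, against 20 of 124 (16.1%) of the other members' promoters. Among members that passed in any comparison over the 9 libraries, 9 genes had a matched promoter and others, such as Ccne2, had none. None of these 9 promoters held an E2F word. These shares describe letters in the windows above and were not tested. Outside the 144, of 43 other proliferation genes none passed for C3a over oxy-Hb in the 9 libraries (median 0.04), against 3.94% of all genes. Without C3a replicate 2, 5 of the 43 rose and 3 fell (median 0.16), against 4.0% and 5.55% of all genes. Over the 9 libraries Rrm2, the ribonucleotide reductase subunit of S phase, differed over oxy-Hb by 0.52 (edgeR adjusted p = 0.0691). Gmnn, the licensing inhibitor geminin, differed by 0.37 (edgeR adjusted p = 0.0745). Cenpa, the centromeric histone, differed by -0.37 (edgeR adjusted p = 0.0508) and Foxm1, a transcription factor of mitotic genes, by -0.60 (edgeR adjusted p = 0.0717). Over C3aRA 3 of the 43 rose, Tipin (0.60, edgeR adjusted p = 0.0252), Rrm2 (0.59, edgeR adjusted p = 0.0387) and Lmnb1 (0.45, edgeR adjusted p = 0.0416). In that comparison 2 fell, Cenpa (-0.40, edgeR adjusted p = 0.0346) and Aurkb (-0.43, edgeR adjusted p = 0.0495). Of all genes 2.87% rose and 3.32% fell there. Without C3a replicate 2 more of the 43 passed over C3aRA, in both directions. The lowest p upwards then belonged to Uhrf1 (0.42, edgeR adjusted p = 0.000878) and Lmnb1 (0.50, edgeR adjusted p = 0.00116). Downwards it belonged to Cenpa (-0.41, edgeR adjusted p = 0.00157) and Cdt1 (-0.53, edgeR adjusted p = 0.00192). In that fit 5.97% of all genes rose and 6.54% fell. In C3aRA against oxy-Hb none of the 43 passed over the 9 libraries. The lowest p upwards belonged to Top2a (0.26, edgeR adjusted p = 0.691) and Gins4 (0.18, edgeR adjusted p = 0.718). The lowest downwards belonged to Birc5 (-0.19, edgeR adjusted p = 0.728) and Mybl2 (-0.22, edgeR adjusted p = 0.756). Top2a passed there without C3a replicate 2 (0.26, edgeR adjusted p = 0.0203), against 3.25% of all genes.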

How the data were processed

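RNA-seq counts per gene were analysed for 9 BV2 libraries, grouped by the treatment label. Raw counts, not normalized, were deposited by the authors beside their own log2 fold changes and adjusted p-values. RNA was extracted on RNeasy columns and libraries were made with a SMARTER mRNA-Seq kit, per the labels' protocols. The builds GRCm38 and mm10 are named in the submitters' processing notes, and no source used here names the aligner, the counter or the strand setting.

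Oxy-Hb counts were identical in both deposited tables, which were joined by gene ID. Genes were filtered with filterByExpr (minimum count 10), scaled by TMM and tested with edgeR 4.0.16 (R 4.3.3), robust quasi-likelihood, with all 9 libraries in 1 fit; p-values were adjusted over all 14146 genes tested, with a threshold of 0.05. The common biological coefficient of variation was 15.8%. The fit was tested on simulated data, with C3a over oxy-Hb, C3aRA over oxy-Hb and C3a over C3aRA in this order. It recovered 28.6%, 30.6% and 24.5% of 1.5-fold changes and 74%, 67.3% and 67.4% of 2-fold changes. False calls numbered 8, 13 and 13, with 13834, 13814 and 13814 genes tested. Most simulated 1.5-fold changes were thus missed, and a gene that did not pass is not shown to be unchanged. The simulated libraries were drawn independently around 1 mean per gene. None stood apart as C3a replicate 2 does, and no shift with length or GC content was put in. These rates therefore may not hold for the libraries analysed here. Levels are TMM-scaled CPM, and fold changes are log2 differences fitted by edgeR. The SE after ± is the absolute log2 difference divided by the square root of the quasi-likelihood F statistic. It thus comes from the same test as the p-value and is not a separate measure of spread. Lengths, GC content and exon overlaps came from GENCODE (GRCm38), in which all 144 members were found, and promoters from RefSeq (GRCm38.p6). Of the members, 38 have another gene or pseudogene matching at least 200 bases at 95% identity or more. In the 9 libraries, 3 counts correspond to 0.1562 to 0.2359 CPM.

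Alternatives were other scalings, count filters and tests (limma 3.58.1 voom, DESeq2 1.42.0), a length and GC correction (splines, 4 degrees of freedom), a replicate block, the compared groups alone, and leaving out each library. The members and lists were chosen with earlier results of these data known. Members were named if they were Ccne1 or Ccne2, passed the threshold, had the lowest p where fewer than 8 passed, passed without C3a replicate 2 (up to 8 a direction), or stood in a panel covering each role. Ywhae, Ccnd3, Cdkn2a, Pold2, Rnaseh2c, Smad2, Mcm3, Mcm6, Rpa3, Rfc3, Ywhaq, Fen1, Atr and Prkdc were named after their values were seen. Among other proliferation genes this holds for Lmnb1, Uhrf1 and Cdt1. The 2 fits that combine leaving out C3a replicate 2 with another choice were likewise chosen after seeing the data.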

Additional observations from a re-analysis of the deposited data

How the results depend on the processing

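The 46 differences given with a fold change for Ccne1, Ccne2 and members named by their p had 1044 values under the alternatives; of these 824 kept their direction and side of the threshold, 119 lost and 101 gained a call, and none changed sign. None of the 19 called results among them held in every fit that left out 1 library. Members described by their levels alone are not counted there; of these Atm and Pole differed from oxy-Hb by -0.16 and -0.13 in C3a libraries over the 9 libraries, and by 0.20 and 0.17 without C3a replicate 2, with no call in either fit. The number of members called for C3a over oxy-Hb (9) was 5 with total-count scaling, 18 with DESeq2, 19 with the length and GC correction, 26 with that correction and the replicate block, 0 with the 2 groups alone, 0 at an adjusted p of 0.01, 41 with the correction and without C3a replicate 2, 22 with the 2 groups alone and without it, and 0 to 29 when 1 library was left out. For C3a over C3aRA (10) these counts were 19 with no count filter, 25 with DESeq2, 16 with the block, 21 with the correction, 25 with both, 3 with the 2 groups alone, 2 at 0.01, 38 with the correction and without C3a replicate 2, 39 with the 2 groups alone and without it, and 0 to 36 leaving out 1 library. For C3aRA over oxy-Hb (0) they were 5 with the 2 groups alone, 11 with the correction and without C3a replicate 2, and 0 to 4 leaving out 1 library.

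Over all genes, C3a over oxy-Hb (558) gave 1033 with no count filter, 1346 with DESeq2, 992 with the correction, 1514 with correction and block, 99 with the 2 groups alone, 101 at 0.01, 1674 with the correction and without C3a replicate 2, 1101 with the 2 groups alone and without it, and 54 to 1638 leaving out 1 library. C3a over C3aRA (876) gave 1559 with DESeq2, 1497 with correction and block, 118 with the 2 groups alone, 88 at 0.01, 1955 with the correction and without C3a replicate 2, 1938 with the 2 groups alone and without it, and 53 to 1827 leaving out 1 library. C3aRA over oxy-Hb (0) gave 8 with no count filter, 19 with DESeq2, 1 with correction and block, 603 with the 2 groups alone, 1114 with the correction and without C3a replicate 2, and 0 to 475 leaving out 1 library. The members' median for C3aRA over oxy-Hb (0.01) was -0.057 with total-count scaling, 0.039 with the correction, 0.043 with correction and block, 0.048 with the correction and without C3a replicate 2, and -0.0085 to 0.034 leaving out 1 library. The cause was not tested.

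The labels state no pairing by replicate number, and the main fit used none. Same-numbered deviations correlated at 0.032 to 0.17 for C3a and oxy-Hb. They correlated at -0.0405 to 0.0557 for C3aRA and oxy-Hb and at -0.029 to 0.066 for C3a and C3aRA. In these comparisons 5, 2 and 2 of 6 samples correlated best with their own number. Whether C3a and oxy-Hb libraries were paired by number is therefore not known. With the replicate block 10, 0 and 16 members and 835, 0 and 1210 genes were called for C3a over oxy-Hb, C3aRA over oxy-Hb and C3a over C3aRA. Cdkn1c, Myc and Fen1 rest on few counts, which limits what can be read from them. For Fen1 the part of the antisense overlap in the low count was not tested.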
